A study of Mus musculus with 32 samples.

Results

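The comparison described here is that of DHPG with DMSO in total RNA of cultured mouse hippocampal neurons, over all measured genes. It takes in 10 of the 32 samples of the study, 6 DHPG and 4 DMSO libraries, chosen by their treatment label. Hippocampi of P0 mice were cultured to day 16 in vitro, and the neurons then received 30 µM DHPG or an equal volume of the solvent DMSO for 30 minutes. A further 6 total RNA libraries of neurons given 50 µM forskolin (FSK), an activator of adenylyl cyclase, entered the same statistical fit. They share in its filter, scaling, estimates of spread and the library-set term described below. Their levels are given where a gene is compared between the treatments and for some cell-type markers. The labels name no strain, genotype or sex, and they do not say whether the replicates of a group are separate cultures or animals, so the p-values measure only the spread between these libraries.

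DHPG (dihydroxyphenylglycine) activates the group I class of metabotropic glutamate receptors, among them mGluR5, which is encoded by Grm5. These receptors couple through Gq proteins to phospholipase C, which releases calcium from internal stores and activates protein kinase C, and they also engage the ERK kinases. In the hippocampus their activation is known for a form of long-term depression that depends on rapid synthesis of proteins such as Arc in dendrites. Signals of this kind that reach the nucleus switch on immediate-early genes, which need no newly made protein for their transcription and many of which encode transcription factors such as Fos and the Egr and Nr4a families.

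The libraries fell into 2 sets that the labels do not describe, and both groups are spread over them unequally. DHPG 6 and DMSO 2 to 4 held 38409918 to 45966631 counts, of which 10.8 to 18.7% came from the mitochondrial ribosomal RNA genes mt-Rnr1 and mt-Rnr2 (the deep set). DHPG 1 to 5 and DMSO 1 held 20677117 to 21794001 counts with 1.47 to 2.87% from these genes (the shallow set), and the sets were split at 5%. Results are therefore given over all libraries and, for the genes and lists that matter here, with a term for the library set in the fit and within each set, where 1 of the arms is a single library (DHPG 6 in the deep set, DMSO 1 in the shallow set) that is assumed to vary like the others. The term is estimated from the FSK libraries as well, so a value with it need not lie between those of the sets. A gene is called separated within sets when every DHPG library lay beyond every DMSO library of its own set, in the same direction in both. Markers of excitatory neurons, such as the vesicular glutamate transporter Slc17a7, were detected in full (13 of 13), at a summed level of 1541 to 2062 library-scaled counts (CPM) in DHPG libraries and 1723 to 2147 CPM in DMSO libraries. All of the 12 astrocyte markers were present too, at 3497 to 6303 CPM with DHPG and 4338 to 7231 CPM with DMSO, so the cultures labelled as neurons also held RNA of these markers.

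Across 17173 features tested, 1 passed an adjusted p of 0.05 with the edgeR quasi-likelihood test, in the direction of higher with DHPG (0.00582% of features), and none was lower (0%). At an unadjusted p under 0.05, 747 features were higher (4.35%) and 1382 lower (8.05%). With the library-set term no feature passed in edgeR, and 225 (1.31%) were higher and 175 (1.02%) lower at an unadjusted p under 0.05. The DESeq2 Wald test called 7 features, all higher (0.0408%), and with the set term 17 higher (0.099%) and 1 lower (0.00582%). Limma-voom with quality weights called 2715 higher (15.8%) and 3245 lower (18.9%) over all libraries, and with the set term 4 higher (0.0233%) and none lower. These 4 were Egr2, Maff, Trh and Nr4a1. Of the 17 features that DESeq2 called higher with the term, 8 are listed immediate-early transcription factors, 2 are listed immediate-early effectors, and Trh and the host transcript of miR-212 and miR-132 are also among them.

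The 1 gene that rose in the main test was Trh, which encodes the precursor of thyrotropin-releasing hormone, a tripeptide that acts in the hypothalamus as a releasing hormone and elsewhere in the brain as a neuromodulator. It was a rare transcript, with 23, 7, 6, 22, 10 and 18 estimated counts in DHPG 1 to 6, against 1, 1, 0 and 0 in DMSO 1 to 4. Every DHPG library was above every DMSO library. The summed counts, 86 with DHPG and 2 with DMSO, gave a ratio of 40.5 after scaling to library size, with an exact 95% interval of 10.9 to 340 that covers counting error only. Within the deep set the counts were 18 in the DHPG library and 1 in the DMSO libraries (ratio 53.9, 8.51 to 2245.5), and within the shallow set 68 and 1 (ratio 14.0, 2.43 to 562). In edgeR the log2 fold change was 4.97 ± 0.66 (SE, adjusted p = 0.018). It was 4.77 ± 0.69 with the set term (adjusted p = 0.052), which ends the call. The call was also lost without DMSO 3 (4.61) or DMSO 4 (4.54), which held no Trh count. DESeq2 called Trh with the term (5.10, adjusted p = 0.0051) and without it (5.32, adjusted p = 0.0020). With the term, limma-voom (adjusted p = 0.023) and edgeR without a filter (adjusted p = 0.027) called it too. The authors' deposited table gives Trh a log2 fold change of 5.33 with no adjusted p.

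Among the other genes of the TRH system the values did not follow Trh. The list held 10 tested members, of which Trh was the 1 that passed. Trhr, a receptor for the peptide, had 1.83 to 3.72 CPM over the DHPG libraries and 3.12 to 5.62 CPM over the DMSO libraries. It was below every DMSO library of its own set in each DHPG library, with a log2 fold change of -0.59 ± 0.31 (adjusted p = 0.41 in edgeR), -0.47 with the set term, -1.12 in the deep and -0.69 in the shallow set. The convertase gene Pcsk1, whose product cuts the hormone precursor, had 36.5 ± 9.74 CPM with DHPG (SD, n = 6) and 31.1 ± 8.70 CPM with DMSO (n = 4).

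**Figure D1:**
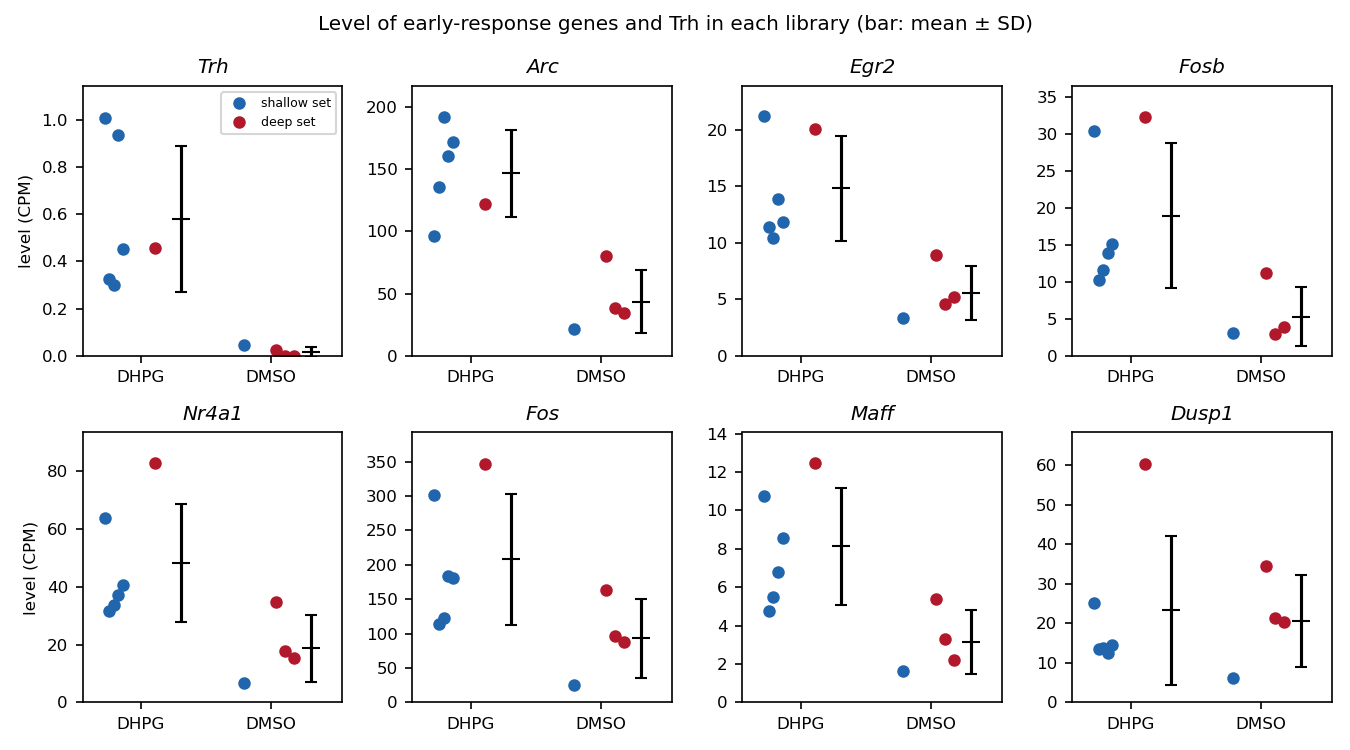
Level in library-scaled counts (CPM, linear axes) of Trh and 7 immediate-early genes in each DHPG library (left of each panel) and DMSO library (right). Points are libraries, blue for the shallow and red for the deep set, and black marks are the group mean ± SD (n = 6 DHPG and 4 DMSO). Trh, Arc and Egr2 do not overlap between the groups, while for Dusp1 the groups overlap (12.6 to 60.4 CPM with DHPG, 6.14 to 34.4 CPM with DMSO). Within each group the deep libraries lie above the shallow ones for Dusp1.

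The promoters of Trh and of 4 immediate-early genes are shown because these genes were among those higher with DHPG in both library sets. Each window runs from 250 bases before to 50 bases after the gene's start in RefSeq (GRCm38.p6), 5′ to 3′ on the strand of the gene. Capitals mark the half-site of the cAMP response element, TGACG or its reverse complement CGTCA, the related site TGACCTCA, or a CArG box, the binding sequence of serum response factor.
Trh, chr6:92244601-92244900, minus strand: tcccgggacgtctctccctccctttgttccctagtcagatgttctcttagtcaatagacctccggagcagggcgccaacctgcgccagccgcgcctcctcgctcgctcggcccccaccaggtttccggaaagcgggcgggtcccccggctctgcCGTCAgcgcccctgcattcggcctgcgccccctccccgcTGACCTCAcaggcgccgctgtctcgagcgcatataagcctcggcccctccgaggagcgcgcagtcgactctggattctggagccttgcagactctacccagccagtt
Egr2, chr10:67537619-67537918, plus strand: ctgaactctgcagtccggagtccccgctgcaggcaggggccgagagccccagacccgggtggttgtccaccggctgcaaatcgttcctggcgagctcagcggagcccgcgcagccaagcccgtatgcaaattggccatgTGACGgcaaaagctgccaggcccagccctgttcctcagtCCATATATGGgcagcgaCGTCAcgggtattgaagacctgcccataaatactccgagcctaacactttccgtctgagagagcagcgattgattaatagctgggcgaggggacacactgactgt
Nr4a1, chr15:101266596-101266895, plus strand: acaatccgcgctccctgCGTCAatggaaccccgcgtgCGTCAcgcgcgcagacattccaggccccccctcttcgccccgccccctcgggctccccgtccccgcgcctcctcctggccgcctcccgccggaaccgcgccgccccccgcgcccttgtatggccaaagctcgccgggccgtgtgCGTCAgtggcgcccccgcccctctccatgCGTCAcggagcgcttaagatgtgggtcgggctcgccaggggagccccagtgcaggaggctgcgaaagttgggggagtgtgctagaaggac
Fosb, chr7:19309996-19310295, minus strand: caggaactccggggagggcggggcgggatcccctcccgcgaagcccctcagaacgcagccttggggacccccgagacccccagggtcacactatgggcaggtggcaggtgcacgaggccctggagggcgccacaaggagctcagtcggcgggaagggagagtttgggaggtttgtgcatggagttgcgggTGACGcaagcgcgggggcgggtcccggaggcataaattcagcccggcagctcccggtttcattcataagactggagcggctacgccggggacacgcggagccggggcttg
Fos, chr12:85473640-85473939, plus strand: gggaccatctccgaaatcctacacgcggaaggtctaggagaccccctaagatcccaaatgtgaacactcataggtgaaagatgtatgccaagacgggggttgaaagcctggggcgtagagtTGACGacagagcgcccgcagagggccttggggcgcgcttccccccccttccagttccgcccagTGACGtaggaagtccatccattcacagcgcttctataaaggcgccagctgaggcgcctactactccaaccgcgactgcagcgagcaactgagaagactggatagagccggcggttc
The Trh window held the site TGACCTCA with 49 bases between it and the start, and 1 half-site. The Nr4a1 window held 4 half-sites, the Fos and Egr2 windows 2 each and the Fosb window 1, with a CArG box in that of Egr2, for which RefSeq lists 5 windows and the one with the most of these motifs is shown. Over all 32851 promoter windows of the same length, searched on both strands, 20.8% held the half-site, 2.17% TGACCTCA, 1.79% the full element TGACGTCA, 1.63% the CArG box and 0.612% the EGR site GCGTGGGCG. A full element contains the half-site, and none of the 5 windows shown held a full element or an EGR site.

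Immediate-early genes held the largest shares of members above DMSO within both library sets among the lists examined. Of 31 tested immediate-early transcription factors, 15 were separated within sets toward higher and none toward lower, and of 28 immediate-early and activity-induced effectors 12 and none. These shares of 48.4% and 42.9% stand beside 3.21% of all features toward higher and 3.13% toward lower. With all libraries and the main filter, none of these genes passed in edgeR, with or without the set term. The median log2 fold change of the transcription factors was 0.14 over all libraries, 0.51 with the set term, 0.46 in the deep and 0.62 in the shallow set. The effectors had 0.19, 0.39, 0.31 and 0.31, where all features had -0.01, 0.00, -0.01 and 0.00. These counts lean on DHPG 6 and DMSO 1, which are 1 arm of their set each. Leaving out a library can only keep or raise them, and without DMSO 2 they were 18 and 15.

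Arc, whose protein drives endocytosis of AMPA receptors in mGluR-dependent depression, had 96.5, 136, 192, 161, 172 and 122 CPM in DHPG 1 to 6. In DMSO 1 to 4 it had 21.4, 80.0, 38.4 and 34.4 CPM. All of the 6 DHPG libraries lay above all of the 4 DMSO libraries, and DMSO 2 was the highest of its group. The log2 fold change was 1.75 ± 0.31 (edgeR adjusted p = 0.26), 1.66 with the set term (adjusted p = 0.41), 1.26 in the deep and 2.82 in the shallow set. DESeq2 called Arc with the term (adjusted p = 0.00083) and without it (adjusted p = 3.3e-05). Without DMSO 2, which had the highest levels of early genes in its group, edgeR called 5 features (0.0287%) and, with the term, 10 (0.0573%), all higher. Arc was among them at 2.24 (adjusted p = 0.0049) and, with the term, at 2.08 (adjusted p = 0.0072), as were Egr2, Fosb and Trh in both fits and Nr4a1, Maff and Dusp1 with the term. Leaving out the control that is highest for early genes raises their fold changes by construction, so these calls are not separate support. Without DMSO 3 or without DMSO 4 edgeR called 0 features, with and without the term.

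Egr2 (Krox20), a zinc-finger transcription factor, had 21.2, 11.4, 10.5, 13.9, 11.8 and 20.1 CPM in DHPG 1 to 6 and 3.35, 8.97, 4.63 and 5.23 CPM in DMSO 1 to 4. The groups did not overlap. Its log2 fold change was 1.41 ± 0.27 (edgeR adjusted p = 0.33) and 1.71 ± 0.26 with the set term (adjusted p = 0.052), with 1.68 in the deep and 2.04 in the shallow set. DESeq2 called it with the term (adjusted p = 8.6e-07) and without it (adjusted p = 0.00043). With the term, limma-voom (adjusted p = 0.023) and edgeR without a filter (adjusted p = 0.029) called Egr2 too. Its relative Egr1 gave another picture over all libraries, with 52.7, 38.6, 32.8, 39.0, 41.9 and 141 CPM with DHPG and 23.0, 115, 76.5 and 75.5 CPM with DMSO. Here each DHPG library was above the DMSO libraries of its own set, but the deep libraries of both groups were above the shallow ones. The Egr1 log2 fold change was -0.33 ± 0.47 over all libraries (adjusted p = 0.73) and 0.56 ± 0.21 with the set term, where it did not pass.

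The AP-1 subunit genes Fosb and Fos and the nuclear receptor genes Nr4a1 and Nr4a2 followed the pattern of Arc within sets, with overlap between the groups over all libraries. Fosb had 30.5, 10.3, 11.6, 13.9, 15.2 and 32.3 CPM in DHPG 1 to 6, against 3.09, 11.3, 2.98 and 3.98 CPM in DMSO 1 to 4. DMSO 2 stood above DHPG 2 here, and the other 5 DHPG libraries were above every DMSO library. Its log2 fold change was 1.82 ± 0.40 (edgeR adjusted p = 0.40), 2.08 with the set term, 2.41 in the deep and 2.40 in the shallow set, and DESeq2 called it with the term (adjusted p = 0.00048) and without it (adjusted p = 0.0037). Nr4a1 had 63.8, 31.6, 33.6, 37.3, 40.8 and 82.7 CPM with DHPG and 6.80, 34.7, 17.8 and 15.5 CPM with DMSO. That gave 1.37 ± 0.39 over all libraries, 1.94 with the term (edgeR adjusted p = 0.12, DESeq2 adjusted p = 4.3e-06), 1.87 in the deep and 2.61 in the shallow set. Nr4a2 had 7.85 ± 2.75 CPM with DHPG (SD, n = 6) and 4.77 ± 1.29 CPM with DMSO (n = 4), a log2 fold change of 0.72, or 1.14 with the term (DESeq2 adjusted p = 0.049).

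Fos itself had 301, 114, 123, 183, 181 and 347 CPM in DHPG 1 to 6 and 24.7, 164, 96.2 and 87.1 CPM in DMSO 1 to 4. The lone shallow DMSO library was the lowest of all, and 4 of 6 DHPG libraries exceeded every DMSO library. The Fos log2 fold change was 1.16 ± 0.43 (edgeR adjusted p = 0.40), 1.83 with the set term, 1.58 in the deep and 2.87 in the shallow set, and with the term DESeq2 called it (adjusted p = 0.00063). Maff, a small Maf transcription factor, had 4.74 to 12.5 CPM with DHPG and 1.63 to 5.38 CPM with DMSO, with 1.37 ± 0.47 over all libraries, 2.14 with the term (edgeR adjusted p = 0.12, DESeq2 adjusted p = 4.3e-06), 1.78 in the deep and 2.15 in the shallow set. Klf4, a zinc-finger factor, had 1.35 and 2.15, and Btg2, an antiproliferative early gene, 0.91 and 1.43, in the same order. DESeq2 called both with the term (adjusted p = 0.023 and 0.0047) and neither without it.

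Other members of the transcription factor list stood at smaller values or apart. With the set term Fosl2 had a log2 fold change of 0.58, Junb 0.82, Ier2 0.75, Atf3 0.93 and Csrnp1 1.07, all separated within sets and none passing. Jund, an AP-1 subunit with high basal expression, had 52.8 to 95.1 CPM with DHPG and 72.8 to 153 CPM with DMSO, a log2 fold change of -0.76 ± 0.24 (adjusted p = 0.40), -0.65 with the term, -0.42 in the deep and -0.24 in the shallow set. The neuron-specific factor gene Npas4 had 50.3, 25.1, 30.1, 23.5, 30.6 and 76.6 CPM with DHPG, against 7.28, 91.5, 22.3 and 21.6 CPM with DMSO. DMSO 2 exceeded all DHPG libraries for Npas4, and the log2 fold change of Npas4 was 0.14 ± 0.49 (adjusted p = 0.89). It was 0.64 ± 0.54 with the term, 0.76 in the deep and 2.13 in the shallow set, with overlap within sets. Nr4a3 (-0.15 ± 0.15), Jun (-0.27 ± 0.22) and Egr3 (-0.54 ± 0.28) did not pass either and overlapped within sets.

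**Figure D2:**
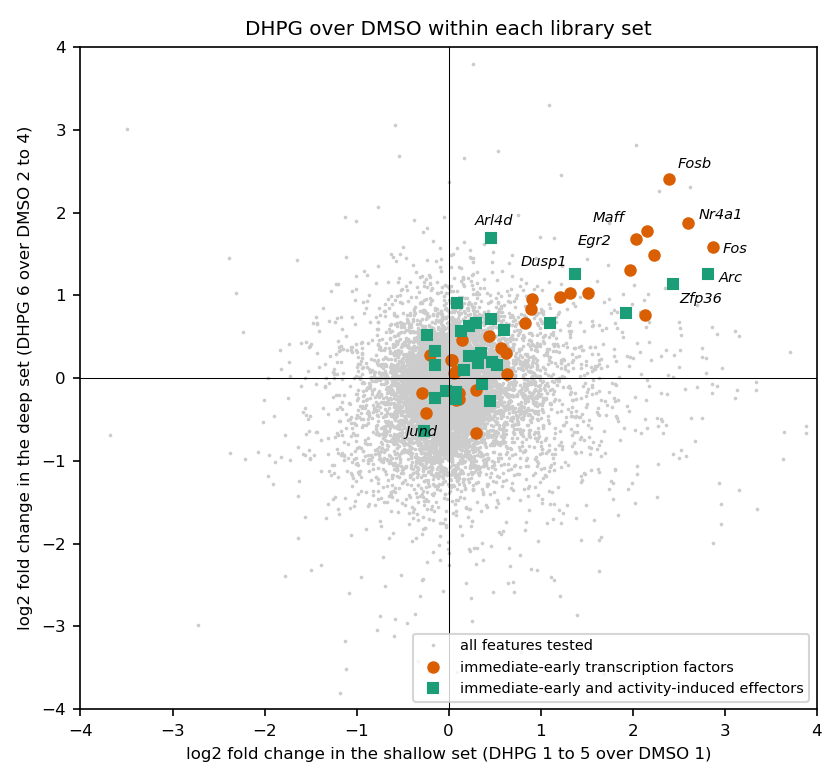
Log2 fold change of DHPG over DMSO within the deep set (vertical axis, DHPG 6 over DMSO 2 to 4) against that within the shallow set (horizontal axis, DHPG 1 to 5 over DMSO 1). Grey points are all 17173 features tested, of which 194 lie outside the axes, orange circles immediate-early transcription factors and green squares immediate-early effectors. The upper right holds Fosb (2.41 deep, 2.40 shallow), Nr4a1 (1.87, 2.61) and Arc (1.26, 2.82), away from the mass of features around 0. The axes share no library.

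The sets share no library, so they are separate measurements of the treatment, each with a single library on 1 side. Over all features the values of the sets had the same sign for 22.3% above 0 and 23.9% below 0, and opposite signs for 53.7%. Of the 31 transcription factors 23 were above 0 in both sets and 2 below 0 in both, and of the 28 effectors 18 and 3. An edgeR test of the difference between the sets called no feature after adjustment (0%) and 473 before it (2.75%). Arc was 1 of these, with a deep minus shallow difference of -1.57 (edgeR adjusted p = 0.96).

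Among the effectors, Rgs2 and Arl4d joined Arc in having no overlap between the groups over all libraries. Rgs2, a GTPase-activating protein that shortens signalling by Gq, had 68.8, 58.9, 55.2, 61.7, 59.4 and 48.5 CPM in DHPG 1 to 6 and 47.7, 39.1, 41.0 and 37.9 CPM in DMSO 1 to 4. All DHPG libraries were above all DMSO libraries, with a log2 fold change of 0.50 ± 0.12 (edgeR adjusted p = 0.40), 0.51 with the set term, 0.30 in the deep and 0.35 in the shallow set. Arl4d, a small GTPase of the ARF family, had 6.08 to 13.7 CPM with DHPG and 3.68 to 5.38 CPM with DMSO, again without overlap, and 0.91 ± 0.22 (adjusted p = 0.40). In the deep set its value was 1.69 ± 0.25 (adjusted p = 0.20 in edgeR, 0.00012 in DESeq2), and in the shallow set 0.46 ± 0.28. Arl4d was 1 of 3 features that DESeq2 called higher in the deep set (0.0175%), where 6 were lower (0.0349%).

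Plk2, a kinase that takes part in synaptic scaling, had 110 to 141 CPM with DHPG and 72.2 to 117 CPM with DMSO, where the 117 CPM were those of DMSO 1. Its log2 fold change was 0.56 ± 0.17 (edgeR adjusted p = 0.40), 0.57 in the deep and 0.13 in the shallow set. Dusp1, a phosphatase that inactivates MAP kinases, had 25.0, 13.4, 13.8, 12.6, 14.5 and 60.4 CPM in DHPG 1 to 6 and 6.14, 34.4, 21.4 and 20.3 CPM in DMSO 1 to 4. Within each set the DHPG libraries were above the DMSO libraries, and the log2 fold change was 0.18 ± 0.55 over all libraries and 1.20 ± 0.24 with the term (edgeR adjusted p = 0.32, DESeq2 adjusted p = 0.0017). Sik1, a kinase that restrains CREB coactivators, had 0.36 over all libraries and 0.66 with the term, and Zfp36, which promotes decay of AU-rich mRNAs, 0.06 and 1.58, none passing in edgeR. Homer1 and Ptgs2 did not separate within sets, with -0.12 ± 0.15 and 0.30 ± 0.27 over all libraries. With the term, in the deep and in the shallow set, Homer1 had -0.10, -0.17 and 0.08, and Ptgs2 0.61, 0.16 and 0.53. The Homer1 values are those of the whole gene, not of its short activity-induced form.

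Transcripts that host small RNAs formed the next group. Of 27 tested hosts and long noncoding RNAs, 11 were separated within sets toward higher (40.7%) and none toward lower. Over all features these shares were 3.21% and 3.13%. The list had a median log2 fold change of 0.22 over all libraries and 0.24 with the set term. The transcript 1700016P03Rik, the precursor of miR-132 and miR-212, had 4.16, 2.88, 1.86, 2.08, 1.32 and 5.81 CPM with DHPG, against 0.397, 1.79, 0.772 and 0.948 CPM with DMSO. DHPG 5 lay below DMSO 2 and the rest of the DHPG libraries above every DMSO library. Its log2 fold change was 1.61 ± 0.41 (edgeR adjusted p = 0.40) and 2.02 with the term (edgeR adjusted p = 0.26, DESeq2 adjusted p = 0.00048).

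Mirg, a transcript of the Dlk1-Dio3 imprinted region that holds many miRNAs, had 16.6 to 28.6 CPM with DHPG and 11.3 to 16.6 CPM with DMSO, a log2 fold change of 0.59 ± 0.22, 0.56 with the set term, 1.001 in the deep and 0.45 in the shallow set. The snoRNA hosts Gas5 (0.57 ± 0.15), Snhg1 (0.28 ± 0.11) and Snhg5 (0.44 ± 0.13) also separated within sets without passing (edgeR adjusted p = 0.40 each). Gas5 had 0.39 with the term, 0.27 in the deep and 0.40 in the shallow set. Snhg1 had 0.37, 0.29 and 0.29 in the same order, and Snhg5 0.26, 0.19 and 0.22. Snhg6 had 0.61 ± 0.22 over all libraries, and 0.19 and 0.18 within the deep and shallow sets.

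The RNA of the receptor mGluR5, on which DHPG acts, did not differ detectably. Grm5 had 123 to 198 CPM with DHPG and 158 to 256 CPM with DMSO (log2 fold change -0.22 ± 0.17, edgeR adjusted p = 0.51). Its value was -0.29 with the set term, -0.49 in the deep and -0.07 in the shallow set, with overlap within sets. Of the 36 tested genes of group I receptors and Gq signalling, Rgs2 alone had an unadjusted p under 0.05. At that limit 4.35% of all features were higher and 8.05% lower. The median of the list was -0.03 (-0.06 with the set term). Gnaq, which encodes the alpha subunit of Gq, had -0.15 ± 0.12, and Itpr1, the calcium channel of internal stores, -0.15 ± 0.13. Among the 5 other metabotropic receptor genes none had an unadjusted p under 0.05.

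Genes of mGluR-dependent depression and translation control, 37 in number, had medians of 0.06 and, with the set term, 0.01. Arc was the 1 member separated within sets toward higher and Eif4ebp1, which encodes a translation repressor, the 1 toward lower (2.70% each, where all features had 3.21% and 3.13%). The MAPK feedback list of 18 had 3 separated within sets toward higher, Dusp1, Errfi1 and Spry2 (16.7%), and Spred2 toward lower (5.56%). Spry2, an inhibitor of receptor tyrosine kinase signalling, had 80.1 to 95.8 CPM with DHPG and 57.9 to 81.7 CPM with DMSO (0.43 ± 0.10, edgeR adjusted p = 0.40), with 0.41 in the deep and 0.14 in the shallow set. The neurotrophin gene Bdnf, one of 21 late-response and secreted synaptic genes, had 26.5 to 41.2 CPM with DHPG and 28.5 to 41.9 CPM with DMSO (-0.14 ± 0.16, adjusted p = 0.68), with each DHPG library below the DMSO libraries of its own set. Of 37 genes of ionotropic receptors and the postsynaptic density 1 was separated within sets (2.70%, near the 3.13% of all features toward lower), the scaffold gene Shank1, with 30.1 to 45.7 CPM with DHPG and 48.1 to 58.2 CPM with DMSO (-0.57 ± 0.22, adjusted p = 0.40), -0.68 with the set term, -0.30 in the deep and -0.47 in the shallow set.

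**Figure D3:**
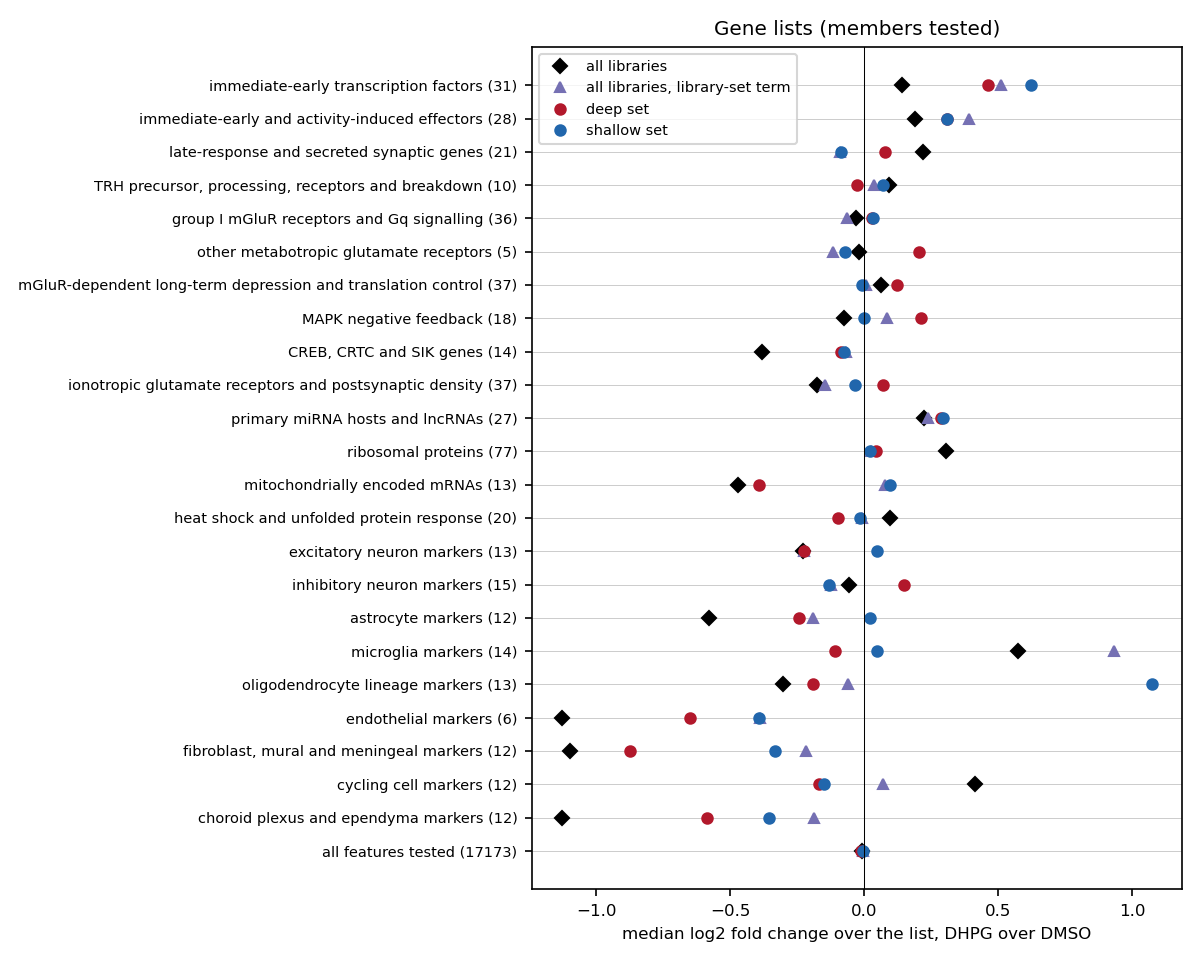
Median log2 fold change of DHPG over DMSO for each gene list (members tested in brackets) over all libraries (diamonds), with the library-set term (triangles), in the deep set (red) and in the shallow set (blue). The immediate-early transcription factors lie to the right of 0 in all 4 values (0.14, 0.51, 0.46 and 0.62). Choroid plexus and ependyma markers lie at -1.13 over all libraries, -0.19 with the set term, -0.59 in the deep and -0.35 in the shallow set.

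Several lists lay nearer 0 with the set in the fit than over all libraries. The 77 ribosomal protein genes had a median of 0.31 over all libraries, 0.02 with the term, 0.04 in the deep and 0.02 in the shallow set. In the same order the 14 CREB, CRTC and SIK genes had -0.38, -0.07, -0.09 and -0.07, and the 13 mitochondrially encoded mRNAs -0.47, 0.08, -0.39 and 0.10. Astrocyte markers had -0.58, -0.19, -0.24 and 0.02. Some further marker lists had medians below 0 within both sets. Cycling cell markers had 0.41, 0.07, -0.17 and -0.15, with 7 of 12 below 0 in both sets. Endothelial markers had -1.13, -0.39, -0.65 and -0.39, with 4 of 6 tested below 0 in both sets. Of these 6, 2 were separated within sets toward lower (33.3%) and 1 toward higher (16.7%), where all features had 3.13% and 3.21%. Fibroblast, mural and meningeal markers had -1.10, -0.22, -0.87 and -0.33, with 7 of 12 below 0 in both sets. Choroid plexus and ependyma markers had -1.13, -0.19, -0.59 and -0.35, with 8 of 12 below 0 in both sets. Of these 12, Ttr, Kl, Folr1 and Kcnj13 were separated within sets toward lower (33.3%, where all features had 3.13%). Ttr, the transthyretin gene that choroid plexus expresses strongly, had 12.5, 53.5, 51.2, 58.7, 67.0 and 63.3 CPM in DHPG 1 to 6 and 76.6, 169, 167 and 110 CPM in DMSO 1 to 4. Its log2 fold change was -1.36 ± 0.62 (edgeR adjusted p = 0.40), -0.24 with the term, -1.23 in the deep and -0.66 in the shallow set, with all DHPG libraries below all DMSO libraries. The set term also draws on the FSK libraries, where FSK 4 and FSK 5 stood above FSK 6 for some markers. The choroid plexus and ependyma sum was 594 CPM in FSK 4, 530 CPM in FSK 5 and 216 CPM in FSK 6, all deep. For microglia markers the sums were 256, 431 and 27.1 CPM in the same order. What FSK 4 and FSK 5 add to the values with the term was not tested. In bulk RNA, fewer cells of a type and less RNA per cell cannot be told apart.

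**Figure D4:**
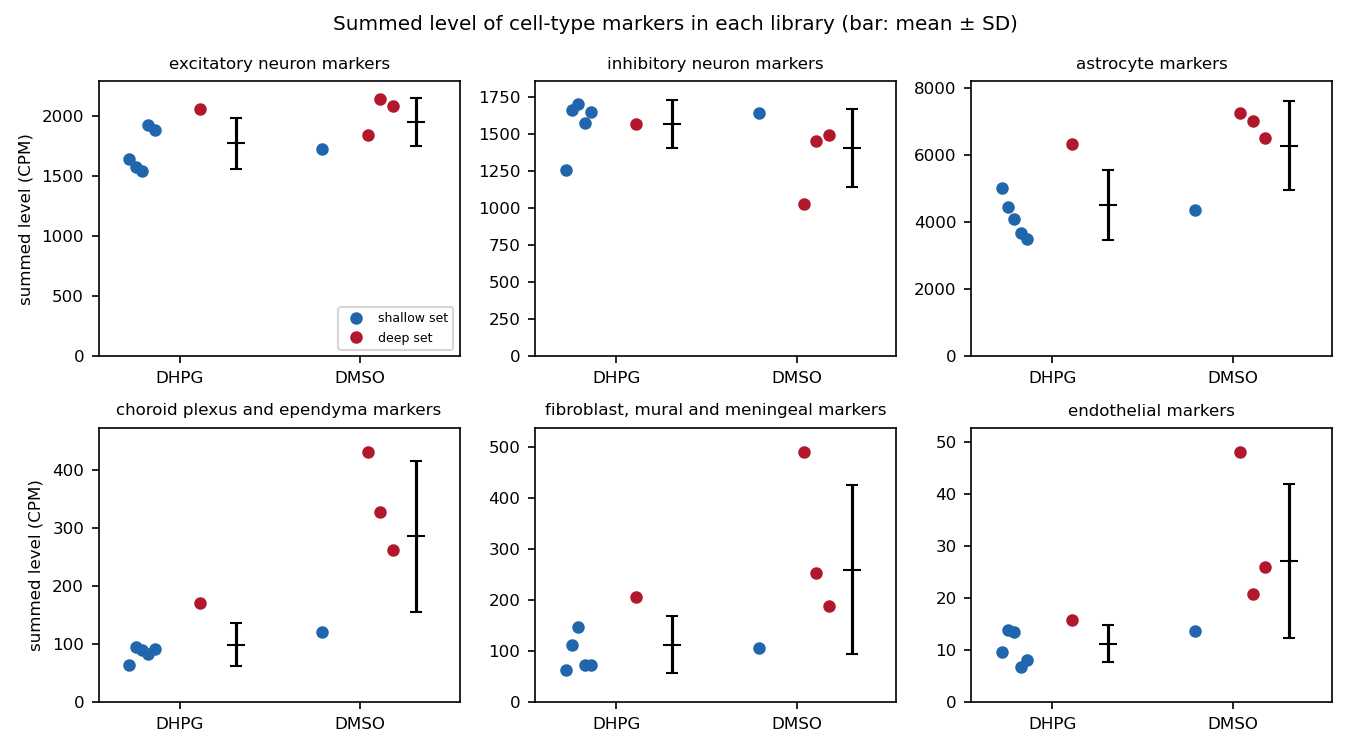
Summed level in library-scaled counts (CPM, linear axes from 0) of 6 lists of cell-type markers in each DHPG (left) and DMSO (right) library, blue for the shallow and red for the deep set, with the group mean ± SD (n = 6 DHPG and 4 DMSO). The choroid plexus and ependyma sum was 64.4 to 171 CPM with DHPG and 121 to 432 CPM with DMSO, and deep libraries were above the shallow libraries of their own group for it.

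Some genes of the extracellular matrix also had large negative values. Ogn (log2 fold change -1.96 ± 0.73, and -0.60 with the set term), Ecm2 (-1.36 ± 0.53, and -0.42) and Sparc (-1.30 ± 0.55, and -0.38) had no overlap between the groups and did not pass (edgeR adjusted p = 0.40 each). In the deep and shallow sets Ogn had -1.55 and -0.88, Ecm2 -1.37 and -0.62, and Sparc -0.98 and -0.67. The summed level of fibroblast, mural and meningeal markers was 62.6 to 205 CPM with DHPG and 107 to 490 CPM with DMSO. Unlike these 3 genes, the sum overlapped between the groups within both sets. In the deep set DHPG 6 had 205 CPM and DMSO 4 had 189 CPM. In the shallow set DHPG 3 had 148 CPM and DMSO 1 had 107 CPM. Endothelial markers had 6.80 to 15.8 CPM with DHPG and 13.8 to 48.2 CPM with DMSO, with Cldn5 at 0 in all libraries. The part of these cells in the result was not tested.

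For some genes the values with and without the set term were close. Neil1, a DNA glycosylase of base excision repair, had 7.40, 7.30, 6.84, 6.03, 6.85 and 6.70 CPM in DHPG 1 to 6 and 4.28, 4.76, 4.14 and 3.96 CPM in DMSO 1 to 4. The groups were clear of each other, and the log2 fold change was 0.68 ± 0.12 (edgeR adjusted p = 0.28), 0.59 with the term, 0.65 in the deep and 0.68 in the shallow set. DESeq2 called it with the term (adjusted p = 0.0066) and without it (adjusted p = 0.00040). Emd, the gene of the inner nuclear membrane protein emerin, had 0.58 ± 0.13 and, with the term, 0.59 ± 0.14. The values spread more for Pcsk1n, which encodes the convertase inhibitor proSAAS and had 45.4 to 76.1 CPM with DHPG and 90.5 to 164 CPM with DMSO, with -1.10 ± 0.45 (edgeR adjusted p = 0.40), -1.40 with the term, -0.87 in the deep and -0.69 in the shallow set. By contrast Noct, a circadian phosphatase gene, had 0.17 ± 0.21 over all libraries and 0.55 ± 0.12 with the term, where DESeq2 called it (adjusted p = 0.0032).

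Over all libraries 110 features were separated toward higher (0.641%) and 115 toward lower (0.67%). Some of the largest values belonged to predicted genes and pseudogenes. Gm13414, a processed pseudogene, had 773 counts with DHPG, of which 4 fell in DHPG 6, and 0 with DMSO, at least 243-fold higher against a floor of 3 counts over the DMSO group, which gave at least 3.99-fold in the deep and 52.9-fold in the shallow set. Gm3629 had 156 counts with DHPG and 0 with DMSO (at least 49.0-fold higher, with 51.9 in the deep and 7.15 in the shallow set) and was at 0 in DHPG 5. The pseudogene Rps6-ps4 was at 0 in all 6 DHPG libraries and had 641 and 541 estimated counts in DMSO 3 and DMSO 4 but 0 in DMSO 1 and DMSO 2, and it missed the filter. Reads of such copies may be divided among near-identical sequences by the authors' quantification, so these values are uncertain.

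The authors' deposited table for this comparison gave an adjusted p under 0.05 for 41 features higher with DHPG (0.254% of 16159) and 199 lower (1.23%). All of the 41 had the same sign in the edgeR fit. Of them, 35 (85.4%) were separated within sets toward higher, beside 3.21% of all features. The 41 had a median log2 fold change of 0.76 in that fit, and 0.56 with the set term. Of the 198 lower features that were tested here 93 (47.0%) were separated within sets toward lower, beside 3.13% of all features. Their median was -1.30 over all libraries, -0.41 with the term, -0.87 in the deep and -0.34 in the shallow set. For 169 the value with the term was 0.5 of the value without it or less. The part of the FSK libraries, which also enter the term, in this change was not tested. None of these features passed in edgeR, and none of these shares is independent of the table, since it rests on the same libraries. The adjusted p in the authors' deposited table was 0.0013 for Egr2, 0.0097 for Fosb, 0.023 for Rgs2, 0.024 for Maff, 0.027 for Arc and 0.036 for Nr4a1, all called higher, and 0.11 for Fos and 0.16 for Btg2, which were not called.

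**Figure D5:**
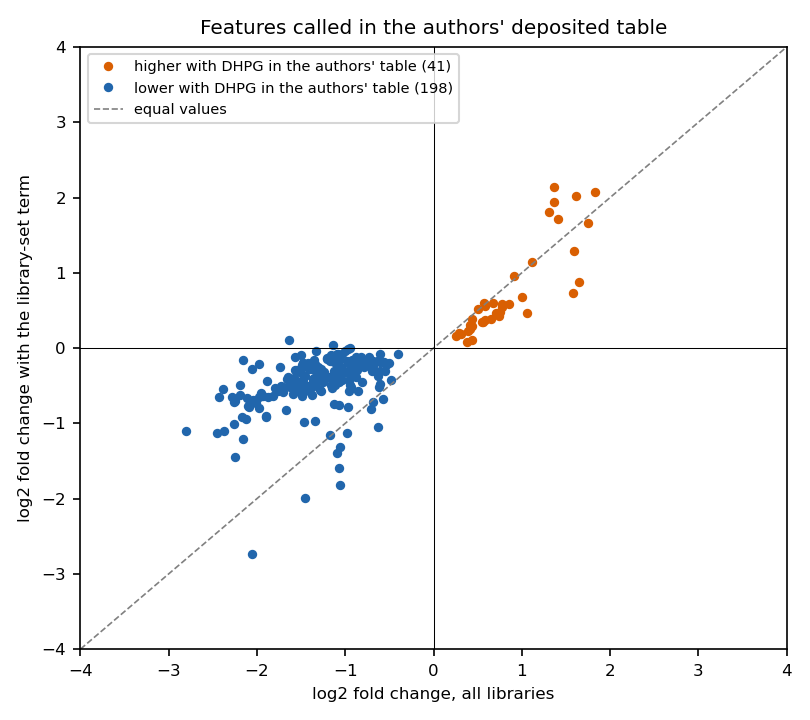
Log2 fold change of DHPG over DMSO with the library-set term (vertical axis) against that over all libraries without it (horizontal axis), from edgeR, for features called higher (orange, 41) or lower (blue, 198 tested) in the authors' deposited table. The dashed line marks equal values and 3 features lie outside the axes. The orange points have a median of 0.76 without and 0.56 with the term, and the blue points one of -1.30 without and -0.41 with it.

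For scale, some of the genes named above were compared with their level under forskolin in the same fit, a contrast that uses no DMSO library. At an adjusted p of 0.05 in edgeR, FSK libraries were above DHPG libraries for 2803 features (16.3%) and below them for 2480 (14.4%). Higher with FSK were Fosb, at 85.7 ± 7.21 CPM in FSK and 19.0 ± 9.79 CPM in DHPG libraries (SD, n = 6 each; log2 fold change 2.17 ± 0.34, adjusted p = 0.016), and Arl4d, at 28.6 ± 3.18 CPM in FSK and 8.47 ± 3.02 CPM in DHPG libraries (1.75 ± 0.19, adjusted p = 0.0016). So were Fos (1.38), Nr4a1 (0.995), Maff (2.16), Dusp1 (2.06), Npas4 (1.68), Rgs2 (0.88) and 1700016P03Rik (2.05). For others the difference did not pass, among them Trh, Arc, Egr2, Egr1 (0.77 ± 0.43, adjusted p = 0.17), Plk2 (-0.18 ± 0.15, adjusted p = 0.38) and Neil1 (-0.06 ± 0.11, adjusted p = 0.69). Trh had 0.678 ± 0.170 CPM in FSK and 0.580 ± 0.311 CPM in DHPG libraries (0.22 ± 0.38, adjusted p = 0.67), Arc 198 ± 41.6 CPM in FSK and 146 ± 35.1 CPM in DHPG libraries (0.43 ± 0.26, adjusted p = 0.19), and Egr2 19.5 ± 3.66 CPM in FSK and 14.8 ± 4.68 CPM in DHPG libraries (0.40 ± 0.23, adjusted p = 0.18). These p-values do not show that the treatments act alike on them. The deep set held 3 of 6 FSK libraries and 1 of 6 DHPG libraries.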

How the data were processed

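RNA was extracted with Trizol and chloroform and libraries were made with a stranded total RNA kit, per the labels' protocols. The submitters' processing notes name Salmon, GRCm38 and DESeq, with no versions. The deposited table holds estimated counts of Salmon (per those notes) for 51267 features, of which 26.6% of values are not whole, and these were rounded. Its columns named as controls were taken as DMSO by their replicate number. The authors' deposited comparison gives log2 fold changes and p-values (adjusted and unadjusted), with the mean count per feature as a scaled signal. A further 24 features have names that are plain numbers, as a spreadsheet leaves them, and carry 0.209% of the counts.

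The edgeR quasi-likelihood F test (edgeR 4.0.16, R 4.3.3, robust, TMM scaling, filterByExpr minimum count 10) was fitted to the 16 total RNA libraries as 3 groups without a block, leaving 17173 features, with Benjamini-Hochberg adjustment and a limit of 0.05. Further fits added the library set, or gave each group a mean in each set. Levels, in CPM, are counts divided by the TMM-adjusted library size. Log2 fold changes are given ± SE. Unless a tool is named, p-values come from edgeR. DESeq2 1.42.0 and limma-voom (limma 3.58.1) were alternatives, DESeq2 NA values stayed NA, and the scripts were tested on simulated counts.

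The groups, gene lists and named genes were chosen with earlier results of these data known, and no list carries a test. Named genes are every feature called; the largest separated changes in each direction; up to 4 members of smallest p of each list; up to 15 of smallest p among the authors' calls; and a fixed group of early genes and receptors. Maff, Dusp1, Klf4, Btg2, Noct, Emd and some others fall outside it and were picked once their values were known. Some genes the rule names are not reported here, and the miRNA libraries were not analysed here.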

Additional observations from a re-analysis of the deposited data

Results flagged for a closer look

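In 128 groups of values of single genes looked at, 14 had a library standing apart from the rest of its group by more than a Dixon test at the 95% level allows, and chance alone gives about 1 in 20. Of these, 7 are values of DHPG 6, the only deep library of its group. DHPG 6 was the highest DHPG library for Egr1 (141 CPM, others 32.8 to 52.7), Dusp1 (60.4, others 12.6 to 25.0), Zfp36 (14.0, others 1.81 to 4.72), the cilia factor gene Foxj1 (57.2, others 5.78 to 21.7), the growth factor gene Igf2 (33.3, others 2.54 to 6.97), mt-Nd2 (319, others 97.8 to 145) and the MAPK inhibitor gene Spred2 (27.4, others 14.98 to 17.8). DMSO 1, the only shallow library of its group, was the highest for Spry2 (81.7 CPM, others 57.9 to 61.7), Plk2 (117, others 72.2 to 76.5) and Snhg6 (11.7, others 6.55 to 7.36) and the lowest for Spred2 (19.2, others 29.8 to 31.2). The remaining values are Fosb in DMSO 2 (11.3 CPM, others 2.98 to 3.98), Grm5 in DMSO 4 (256 CPM, others 158 to 175) and Ttr in DHPG 1 (12.5 CPM, others 51.2 to 67.0).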

How the results depend on the processing

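The edgeR count of features called, 1 over all libraries, stayed 1 with DESeq2 size factors, without TMM, without the mitochondrial rRNA genes and without a filter. It was 0 in the deep set, in the shallow set, at a minimum count of 30, with the DHPG and DMSO libraries alone, with the library-set term, with both of these, and without FSK 4 and FSK 5. DESeq2 gave 7, 18 with the set term, 9 in the deep and 5 in the shallow set. Limma-voom with quality weights gave 5960, 4 with the term and 6 in the deep set. Without a filter edgeR gave 2 with the term and 1 in the deep set. Leaving out 1 library gave 0 to 5 (0 without DMSO 3 or DMSO 4, 2 without DMSO 1, 5 without DMSO 2), with the term 0 to 10, in the deep set 0 to 1 and in the shallow set 0 to 2. The minimum count of 30 filters Trh out, so the 0 at that setting is no test of Trh. The cause of the other changes was not tested. Replicate numbers 1 to 4 occur in both groups, but same-number pairs correlated at -0.18 to 0.02 and 0 of 4 correlated best with their own number. The library set was not removed in this check, and DHPG 2 to 4 are shallow while DMSO 2 to 4 are deep. It therefore cannot tell whether the numbers pair the samples. With the replicate block 0 features were called, with and without the set term. The counts of early genes separated within sets, 15 and 12, stayed within 1.5-fold under the alternatives that gave a value. They have none without DHPG 6 or DMSO 1, which leave a set with 1 group.

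Signs turned for 16 of the named genes, none of them called in edgeR over all libraries. Egr1 had 0.66 in the deep set, 0.83 in the shallow set, 0.56 with the set term, 0.75 with the term and no FSK libraries, and 0.87 with the block and the term. In the shallow set Homer1 had 0.082, Sox9 0.065 and mt-Nd2 0.10. With limma-voom Dusp1 had -0.37, Bdnf 0.064, Zfp36 -0.54 and Noct -0.10, and with the block Dusp1 had -0.26 and Zfp36 -0.54. With the block and the term C1qtnf3 had 0.12, Ogn 0.46, Ecm2 0.27, Sparc 0.29, Slco1a4 0.67, Sox9 0.22, Foxj1 0.86 and Gfap 0.58. Leaving out 1 library gave ranges across 0 for Npas4 (-0.19 to 1.22, the highest without DMSO 2), Dusp1 (-0.38 without DHPG 6, 0.56 without DMSO 2), Homer1 (-0.19 to 0.041) and Zfp36 (-0.56 without DHPG 6, 0.65 without DMSO 2).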
